A study of Mus musculus with 6 samples.

Results

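Complement genes were followed in 6 RNA-seq libraries from tumours of Hep1-6, a mouse hepatoma cell line. The 9 genes, C1qa, C1qb, C1qc, C2, C3, C4b, Cfb, Cfi and Hc, were chosen by name from a table of 34745 genes, and each name matched 1 row. Hep1-6 cells had been grown in culture and injected under the skin of C57BL/6J mice, and the hosts ate either a normal diet (ND, 3 tumours) or a high cholesterol diet (HCD, 3 tumours). Cell line, host strain and injection site were shared by all libraries. The age and sex of the hosts, the cholesterol content of the diet and its duration are not given in the sources used here. Separate hosts for the tumours are not stated in the labels, so the tests see only the spread between these samples, which may be technical. Values are FPKM, which divide a gene's fragments by its length and by the size of the library. Of the 9 genes, 8 reached the level for testing, 0.5 FPKM averaged over all libraries, as did 13417 genes of the table in all. Cfb did not.

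Complement is a cascade of plasma proteins that tags particles and cells for uptake and can punch pores into membranes. In the classical pathway C1q, a bundle of 3 kinds of chain, binds antibody or other targets, and the proteases attached to it cut C4 and C2 to form an enzyme that cuts C3. In the alternative pathway, factor B joins C3b to form another such enzyme, and factor I, the product of Cfi, cuts C3b and C4b into inactive forms. Hc encodes C5, whose cleavage releases the attractant C5a and starts the membrane attack complex. Hepatocytes secrete most of these proteins into plasma, whereas C1q comes mainly from macrophages and related cells.

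The 3 C1q genes lie side by side on the minus strand of mouse chromosome 4 (GRCm38, GENCODE M21), within 18675 bases. C1qa spans 136895917 to 136898803, C1qc 136889804 to 136893065 and C1qb 136880129 to 136886187. The upstream sequences of C1qb and C1qc, whose levels moved together, are shown beside that of C3, whose level was nearly constant. RefSeq promoter entries on GRCm38.p6 matched C1qb, C1qc, C3 and Hc. The stretches are read 5′ to 3′ on the gene's strand and end at the base before the gene's start, with bases inside a GENCODE exon of the gene left out. They lie at chr4:136886201-136886450 (C1qb), chr4:136893066-136893164 (C1qc) and chr17:57228137-57228386 (C3), all on the minus strand. Capitals mark matches to the motifs searched on both strands.
C1qb: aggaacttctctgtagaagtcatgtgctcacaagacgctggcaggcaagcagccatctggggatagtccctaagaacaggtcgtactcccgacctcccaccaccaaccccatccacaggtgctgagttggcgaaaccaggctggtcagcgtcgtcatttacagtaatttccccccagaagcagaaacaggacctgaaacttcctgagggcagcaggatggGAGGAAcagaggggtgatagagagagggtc
C1qc: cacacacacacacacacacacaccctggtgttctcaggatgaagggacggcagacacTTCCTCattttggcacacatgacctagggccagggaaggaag
C3: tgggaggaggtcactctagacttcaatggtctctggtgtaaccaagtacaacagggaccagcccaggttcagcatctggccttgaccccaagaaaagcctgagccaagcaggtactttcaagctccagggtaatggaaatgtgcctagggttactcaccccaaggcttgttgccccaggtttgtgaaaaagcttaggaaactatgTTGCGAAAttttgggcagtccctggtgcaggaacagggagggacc
The first motif searched was GAGGAA, the core of the site of PU.1, a factor that directs myeloid genes. The others were TTGCNNAA (C/EBP) and TTCNNNGAA (STAT), where N is any base, and the TATA box, spelled TATAAA. Of these, C1qb and C1qc each held 1 match to GAGGAA, in C1qc on the opposite strand. It began 30 bases before the start in C1qb and 42 bases before the end of the stretch in C1qc. Among 32851 promoters, 23.3% held GAGGAA within 250 bases before the start and 9.74% within 99 bases. Those 99 bases lie directly before the RefSeq start. The C1qc stretch lies further upstream, beyond the 151 bases left out, so that share describes another region. C3 held 1 match to TTGCNNAA, 45 bases before its start, which 9.56% of the promoters held within 250 bases. These are matches of letters and not evidence of binding.

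The library sizes implied by the steps of the FPKM values ranged from 20351635 to 26228070 fragments. Marker lists for the tissue were read from the same libraries. The summed level of 15 macrophage genes ranged from 213 to 501 FPKM in ND tumours and between 354 and 828 FPKM in HCD tumours, with ND 1 lowest and HCD 2 highest. The summed level of 14 hepatocyte and hepatoma genes ranged from 1766 to 2113 FPKM in ND and from 1593 to 2241 FPKM in HCD, while Apoa2, Ahsg, Fga, Fgg and Serpina6 among them stayed under 0.5 FPKM on average. Skeletal muscle genes, in contrast, were abundant in ND 2 and HCD 1 (summed 730.1 and 852 FPKM) and lower in the others (5.07 to 80.9 FPKM). The ranges of the summed fibroblast (931 to 1137 and 841 to 1052 FPKM), endothelial (52.3 to 66.7 and 63.7 to 112.6 FPKM), dendritic (4.26 to 11.3 and 6.80 to 12.2 FPKM), T and NK cell (7.45 to 32.0 and 22.7 to 58.1 FPKM) and adipocyte lists (8.29 to 19.7 and 5.21 to 56.6 FPKM) overlapped between ND and HCD. Single genes dominate some sums: Dcn (682 to 914 FPKM) the fibroblast sum and Alb (1176 to 1672 FPKM) the hepatocyte and hepatoma sum. The fibroblast gene Col1a1 varied more, from 43.6 FPKM in ND 2 to 93.2 FPKM in HCD 2.

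By level, the genes fell into an abundant and a sparse set. C3 (mean 153 FPKM over 6 libraries), C1qa (126 FPKM), C1qb (123 FPKM), C1qc (43.7 FPKM) and C4b (37.9 FPKM) each exceeded at least 92.1% of the tested genes. Cfi (4.44 FPKM), Hc (2.86 FPKM), C2 (0.655 FPKM) and Cfb (0.214 FPKM) followed. C4b exceeded Cfi in 6 of 6 libraries and the ranges of the pair did not overlap. Likewise the ranges of Hc and C2, and of C2 and Cfb, did not overlap. The order within C3, C1qa and C1qb was not fixed, since C3 exceeded C1qa in 5 of 6 libraries and C1qa exceeded C1qb in 4 of 6. The ranges of C1qc and C4b overlapped too, as did those of Cfi and Hc. The recognition chains, C4b and C3 were high, while C2 and Cfb, the protease subunits of the C3-cutting enzymes, were at most 0.894 FPKM in any library.

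**Figure D1:**
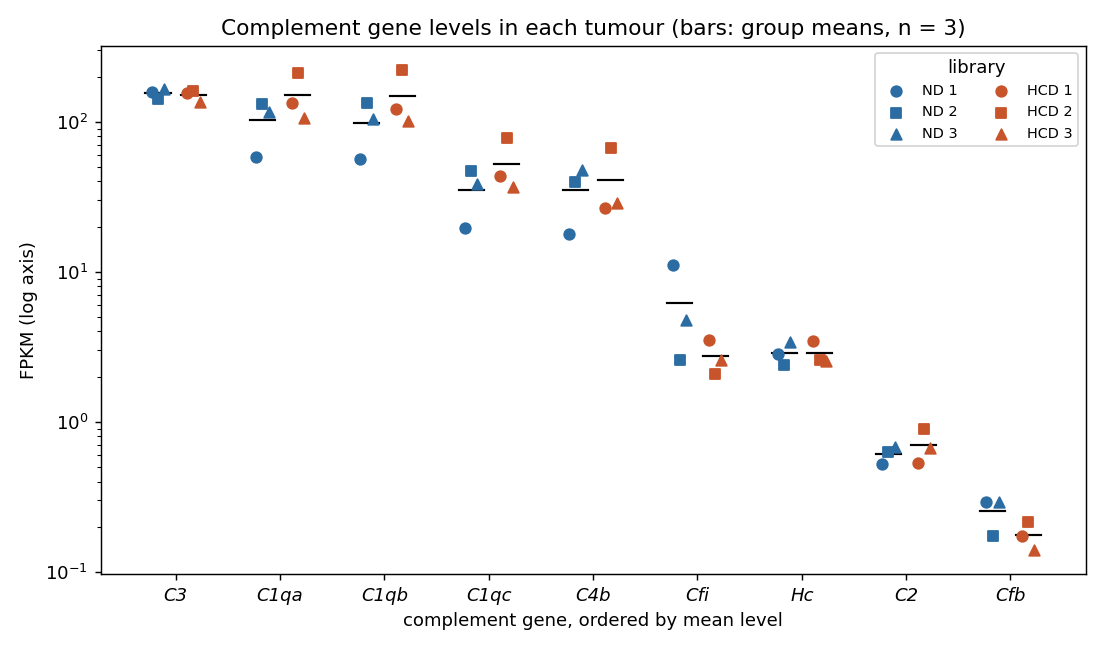
FPKM of the 9 complement genes (log axis) in each of the 6 tumours; blue points are ND and orange points HCD, the marker shape gives the library number and each black bar is a group mean (n = 3). C3 lies within 135 to 166 FPKM in every tumour, whereas the C1q chains and C4b are lowest in ND 1 and highest in HCD 2.

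The comparison of HCD with ND asks whether tumour transcripts differ with dietary cholesterol. None of the 8 tested complement genes was called, higher or lower, by limma at a Benjamini-Hochberg adjusted p of 0.05, against 0% of all 13417 tested genes called in either direction. By limma-voom on reads recovered from the values none of them was called either. At an unadjusted p under 0.05 the count was 0 of 8, against 5.88% of tested genes. No complement gene had groups that did not overlap, against 12.1% of tested genes. On the log2(FPKM + 1) scale 5 of the 8 had a higher mean in HCD, where 55.7% of all tested genes did. Their median difference was 0.13, and that of all tested genes was 0.02. Without ND 1 and HCD 2 together, the libraries with the fewest and the most macrophage transcripts, 1 of 8 had a higher mean in HCD; that omission was chosen after seeing the data. With 3 libraries against 3, an exact permutation test of a single gene cannot give a two-sided p below 0.1.

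**Figure D2:**
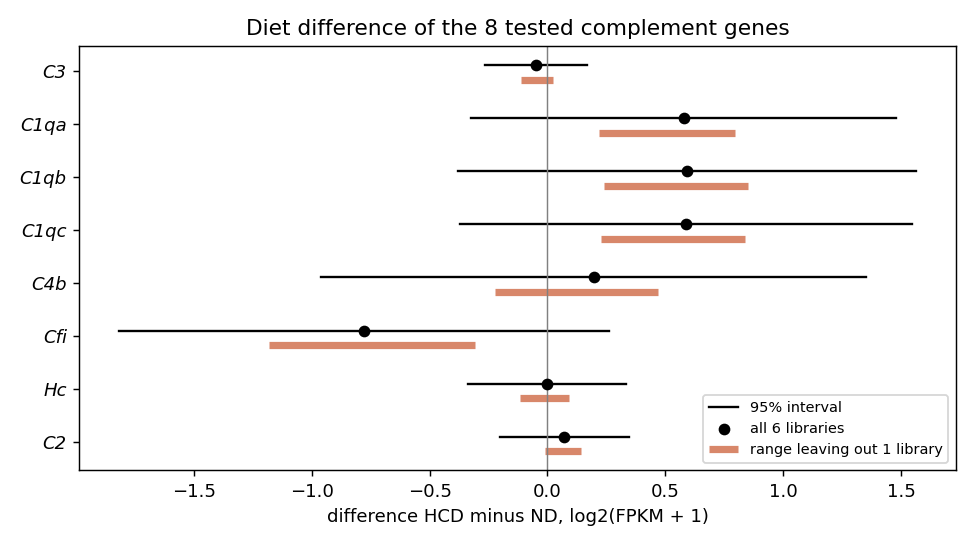
Difference in log2(FPKM + 1), as HCD minus ND, for the 8 tested complement genes; black points and lines give the limma estimate from 6 libraries with its 95% interval, and orange bars span the estimates with 1 library left out. Every interval includes 0, and on this scale the intervals are narrow for C3, Hc and C2 and wide for C4b, Cfi and the C1q chains. Adding 1 narrows the interval of the low gene C2. Its standard error was 0.113 here and 0.256 with 0.1 added instead, where that of C3 was 0.0896 and 0.0900.

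C1q, the recognition molecule of the classical pathway, is built from the products of C1qa, C1qb and C1qc. For C1qa, ND libraries 1, 2 and 3 gave 58.2, 131 and 117 FPKM, and HCD libraries 1, 2 and 3 gave 134, 209.9 and 106 FPKM. C1qb, in the same order, gave 56.5, 133 and 104 FPKM on the normal diet, then 121, 221 and 100.5 FPKM on the high cholesterol diet. C1qc gave 19.4, 46.7 and 38.6 FPKM, then 43.3, 77.6 and 36.8 FPKM. All 3 chains were lowest in ND 1 and highest in HCD 2, and in each of them HCD 3 lay below ND 2 and ND 3, so the groups overlapped. C1qb averaged 97.8 ± 38.5 FPKM on ND against 148 ± 64.5 FPKM on HCD (SD, n = 3). The log2 difference of C1qa was 0.58 (95% interval -0.32 to 1.48, limma adjusted p = 0.794). C1qb and C1qc both differed by 0.59, with adjusted p of 0.795 and 0.794. Without ND 1 the differences were 0.22 for C1qa, 0.24 for C1qb and 0.23 for C1qc. Without ND 1 and HCD 2 together they were -0.051, -0.090 and -0.088.

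The C1q chains kept nearly fixed proportions while their level varied. The ratio of C1qc to C1qb lay between 0.344 and 0.370 in the 6 libraries, a coefficient of variation of 2.75%, where the levels of the chains themselves had coefficients of 39.2% (C1qa), 44.7% (C1qb) and 43.6% (C1qc). The ratio of C1qa to C1qb lay between 0.949 and 1.12. In the assembled protein the 3 chains occur in equal number, whereas C1qc RNA stood at a mean of 0.357 of C1qb per length. That ratio rests on the gene lengths the authors used, which are not stated in the sources used here. The FPKM steps imply 2149 bases for C1qc and 1088 for C1qb, against 1931 and 1088 exon bases in GENCODE M21. The chains' log2 levels correlated over the 6 libraries with Pearson r of 0.998 (C1qb and C1qc), 0.995 (C1qa and C1qc) and 0.991 (C1qa and C1qb). The exact permutation p was 0.00139 for C1qb and C1qc and 0.00278 for each of the other pairs, and the adjusted p over the 36 pairs of complement genes was 0.0333 for all 3. Spearman's rho was 1 for C1qb and C1qc and 0.943 for the other pairs (adjusted exact permutation p = 0.1 and 0.15). A rho of 1 over 6 libraries has an exact permutation p of 0.00278, the smallest possible. Such a pair alone among 36 cannot pass the threshold, so these adjusted p for rho decide little. Without ND 1 and HCD 2, r was 0.998 (C1qb and C1qc), 0.914 (C1qa and C1qc) and 0.907 (C1qa and C1qb). No other pair of the 36 reached an adjusted p under 0.05.

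Macrophage transcripts ranked the libraries much as the C1q chains did, with correlations that did not pass the adjusted threshold. The macrophage list had a mean log2 level of 2.85, 3.57 and 3.46 in ND libraries 1, 2 and 3, and of 3.48, 4.05 and 3.22 in the HCD libraries in that order. Its order over the libraries was that of C1qb and C1qc. C1qb correlated with the list at r = 0.985 (exact permutation p = 0.00556) and rho = 1 (exact permutation p = 0.00278), and r was 0.834 without ND 1 and HCD 2. C1qa gave r = 0.978 and rho = 0.943, with r = 0.879 without those libraries. C1qc gave r = 0.983 and rho = 1, with r = 0.867 without them. The adjusted exact permutation p over 45 pairs of complement gene and list was 0.05 for r in all 3 chains, the lowest in that family and not under the threshold, and between 0.0625 and 0.125 for rho. A rho of 1 already has the smallest p that 6 libraries allow, and 1 such pair alone could not pass. With 14 interferon gamma response genes r was nearly as high, at 0.971 (C1qa), 0.951 (C1qb) and 0.967 (C1qc). Without ND 1 and HCD 2 those r were 0.103, 0.047 and 0.109. The r without these libraries rest on the few left and have no test, so they cannot separate the lists. The mean log2 levels of the endothelial, dendritic, and T and NK cell lists were also lowest in ND 1 and highest in HCD 2. Per Csf1r, the receptor on which macrophages depend, C1qa RNA varied little. Their FPKM ratio took the values 5.39, 6.39 and 5.77 on ND, then 6.75, 6.89 and 6.58 on HCD. All 3 HCD ratios lay above the 3 ND ratios; this ratio was chosen after its values were seen and has no test. Against Adgre1 (F4/80) the ratio ranged from 8.53 to 10.4 in ND and from 9.35 to 11.8 in HCD, and against Lyz2 from 0.565 to 0.695 and from 0.526 to 0.850, with overlap in both, as against Cd68 (4.97 to 6.90 and 6.54 to 8.15). In tumour pieces a smaller number of macrophages and less RNA per macrophage cannot be told apart.

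The genes whose profile over the 6 libraries was most like the mean of the C1q chains, among 6963 genes at 5 FPKM or more, were Laptm5 (r = 0.998), Cybb (r = 0.998) and Myo1f (r = 0.997). Cybb encodes the catalytic subunit of the phagocyte NADPH oxidase and Laptm5 a lysosomal protein of blood cells. In all, 179 genes had r above 0.95, so that likeness over 6 points is shared widely. For C4b the 3 most alike were Mvp (r = 0.996), Gm4070 (r = 0.996) and Gvin1 (r = 0.995), and Gvin1 is a very large interferon-inducible GTPase. For Cfi they were Prr16, Arf4 and Sfr1 (r = 0.994, 0.992 and 0.990), and for Cfb Bcl3, Lamb1 and Mmp3 (r = 0.984, 0.984 and 0.981). The Cfb profile rests on 14 to 32 reads a library and is uncertain. Fewer genes followed C3 and Hc, with 10 and 3 genes above 0.95, led by Thbs2 (r = 0.983) and Tmed3 (r = 0.975). For C2 it was Nampt (r = 0.988).

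**Figure D3:**
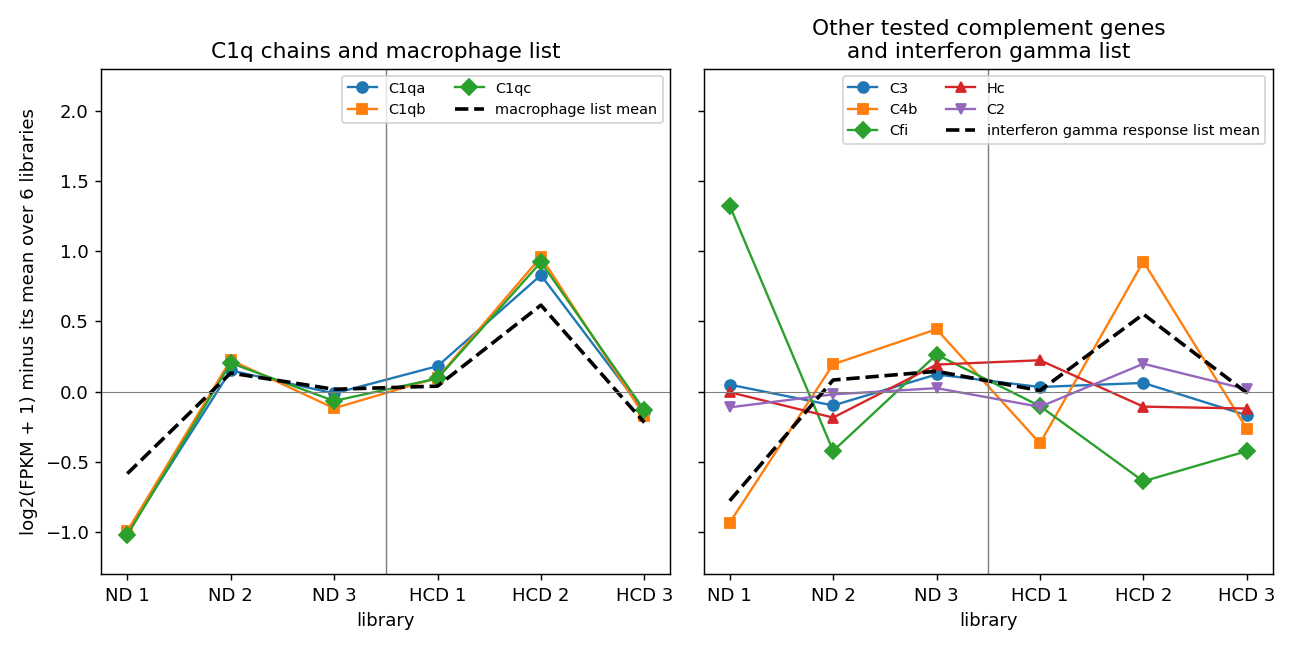
log2(FPKM + 1) of each tested complement gene minus its own mean over the 6 libraries; the left panel holds the C1q chains with the macrophage list mean (dashed) and the right panel the others with the interferon gamma response list mean (dashed), and lines join libraries only to guide the eye. The C1q chains run together from ND 1 (lowest) to HCD 2 (highest), C4b shares those extremes, and Cfi is highest in ND 1 and lowest in HCD 2.

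C4b and C2 supply the parts of the classical C3-cutting enzyme. C4b lies on chromosome 17 (34728380 to 34743882, minus strand). Its ND libraries 1, 2 and 3 gave 17.7, 39.9 and 47.6 FPKM, its HCD libraries 26.7, 66.9 and 28.8 FPKM. As for C1q, ND 1 was lowest and HCD 2 highest, while HCD 1 and HCD 3 lay below both ND 2 and ND 3. The log2 difference was 0.20 (95% interval -0.96 to 1.35, limma adjusted p = 0.927). It turned to -0.22 without ND 1 and to -0.22 without HCD 2. C4b correlated with the mean of 14 interferon gamma response genes at r = 0.923 (exact permutation p = 0.00278, adjusted p = 0.05) and rho = 0.943 (exact permutation p = 0.0167, adjusted p = 0.125). Without ND 1 and HCD 2 that r was 0.975, and the r of C4b with the macrophage list went from 0.912 to 0.446. Over the few libraries left, the interferon gamma response list mean spanned only 4.51 to 4.67. The r without ND 1 and HCD 2 have no test and cannot separate the lists. Of the 14 interferon gamma response genes 14 had a higher mean with HCD, as did 55.7% of all tested genes, and 0 were called. The list's mean log2 level was lowest in ND 1 (3.74) and highest in HCD 2 (5.07), and in the other libraries it was 4.60 and 4.67 with ND against 4.53 and 4.51 with HCD. C4b has a near-identical neighbour, C4a. Of the 100-base windows of the longest C4b transcript, 16.5% occur letter for letter in a C4a transcript, and 35.2% of 50-base windows do, so the split of reads between them is uncertain. C4a itself ranged from 0.403 to 1.01 FPKM over the 6 libraries, far below C4b.

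C2, on chromosome 17 (34862604 to 34898265, minus strand), gave 0.527, 0.628 and 0.679 FPKM in the ND libraries and 0.531, 0.894 and 0.669 FPKM in the HCD libraries, each in the order 1, 2, 3. These values rest on 61 to 103 reads a library. HCD 2 stood highest, and the other 5 libraries lay close together. The log2 difference was 0.07 (95% interval -0.20 to 0.35, limma adjusted p = 0.890), and -0.010 without HCD 2. With 0.1 added to the FPKM in place of 1, the difference was 0.15 and its standard error 0.256, against 0.113. Cfb, the factor B of the alternative pathway, lies 85 bases from C2, at 34856374 to 34862518. In the same order it gave 0.292, 0.175 and 0.293 FPKM, then 0.174, 0.214 and 0.139 FPKM. ND 1 and ND 3 were highest, ND 2 lay within the HCD range, and the groups overlapped. With 14 to 32 reads, a library's exact Poisson 95% interval was wide, from 0.0763 to 0.234 FPKM in HCD 3 and from 0.200 to 0.412 FPKM in ND 1 (counting error only). Cfb was below the level for testing; in a limma fit without that filter it differed by -0.09 on the log2 scale (95% interval -0.22 to 0.04, adjusted p = 0.865).

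The levels of C2 and Cfb carry limits of annotation. A further gene model on the same strand, Gm20547, has 3902 exon bases, and all 3902 lie inside exons of C2 or Cfb. They make up 42.8% of the exon bases of C2 and 79.5% of those of Cfb. Gm20547 was listed at 0 FPKM in all 6 libraries. Counting tools such as HTSeq can set aside reads that fall on more than 1 gene, and the sources used here do not give the setting. The gene lengths implied by the FPKM steps, 5642 bases for C2 and 4798 for Cfb, exceeded their 3872 and 2825 exon bases. A longer length gives a lower FPKM. Whether the low levels of C2 and Cfb reflect such reads or such lengths was not tested. These limits apply to ND and HCD libraries alike.

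C3, on which the pathways converge, was the most constant of the 9 genes. It lies on chromosome 17 (57203970 to 57228136, minus strand) and gave 158, 142 and 166 FPKM in ND libraries 1, 2 and 3, against 156, 159 and 135 FPKM in the HCD libraries. HCD 3 was lowest, ND 3 highest, and the groups overlapped. The highest library exceeded the lowest 1.23-fold, against 3.61-fold to 3.99-fold for the C1q chains and 3.77-fold for C4b. The coefficient of variation over the 6 libraries was 7.52%. The log2 difference was -0.05 (95% interval -0.27 to 0.17, limma adjusted p = 0.904), and it was 0.023 without HCD 3. The correlation of C3 with C1qb was near 0, at r = 0.016 (adjusted exact permutation p = 0.981, n = 6, rho = 0.143). Its highest correlation among the lists was with acute phase and STAT3 genes, at r = 0.919 (exact permutation p = 0.00694, adjusted p = 0.0521) and rho = 0.943, and r was 0.749 without HCD 3 and ND 3. Cfb gave r = 0.975 with the same list (exact permutation p = 0.00417, adjusted p = 0.05), rho = 0.943, and r = 0.956 without those libraries. At 14 to 32 reads a library, the order of the Cfb values is uncertain from counting error. As sums, the 15 acute phase and STAT3 genes reached 86.9 to 130.5 FPKM in ND and 89.1 to 104.2 FPKM in HCD. Of the 10 tested ones, 7 had a lower mean in HCD, as did 5942 of all 13417 tested genes, and 0 were called.

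Cfi, the protease that inactivates C3b and C4b, had the widest spread of the 9 genes. On chromosome 3 (129835884 to 129875332, plus strand), it gave 11.1, 2.60 and 4.79 FPKM in ND libraries 1, 2 and 3, and 3.49, 2.10 and 2.60 FPKM in the HCD libraries. ND 1 stood far above the rest, ND 2 lay within the HCD range, and the groups overlapped. These values rest on 620 reads in ND 1 and 105 to 242 reads in the others. Cfi averaged 6.15 ± 4.40 FPKM on ND against 2.73 ± 0.705 FPKM on HCD (SD, n = 3). The log2 difference was -0.78 (95% interval -1.82 to 0.26, limma adjusted p = 0.794). Without ND 1 the difference was -0.31. Cfi ran against the C1q chains, with r between -0.884 and -0.871 (adjusted exact permutation p = 0.133 for each chain, rho between -0.657 and -0.6), but without ND 1 and HCD 2 r was -0.317 to C1qb and 0.036 to C1qa, so the relation rests on those libraries.

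Hc, which encodes C5, gave 2.83, 2.38 and 3.39 FPKM in ND libraries 1, 2 and 3, and 3.48, 2.57 and 2.53 FPKM in the HCD libraries. It lies on chromosome 2 (34983331 to 35061438, minus strand), and 363 to 491 reads supported each value. HCD 1 was highest and ND 2 lowest, and the means of 2.86 ± 0.506 and 2.86 ± 0.539 FPKM (SD, n = 3) nearly coincided. The log2 difference was -0.0024 (95% interval -0.34 to 0.33, limma adjusted p = 0.997). Hc correlated with C1qb at r = -0.221 (rho = -0.2, adjusted exact permutation p = 0.878). With the hepatocyte and hepatoma list it gave r = 0.646 (adjusted exact permutation p = 0.339, rho = 0.429) and r = 0.037 without HCD 2 and ND 2. With that list C3 gave r = 0.160 and Cfi r = 0.596 (adjusted exact permutation p = 0.899 and 0.363).

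The rest of the complement system was read from a list of 41 further genes, 27 of which were tested. None was called. By their means 15 leaned to HCD and 12 to ND, where 55.7% of all tested genes had a higher mean in HCD. The median log2 difference of the 27 was 0.04. At an unadjusted p under 0.05 there were 2 of 27, C1qbp and C5ar1, where 5.88% of all tested genes passed. Mbl1, Mbl2, C8a and C8b, genes of lectin recognition and of the membrane attack complex, were listed at 0 in all 6 libraries. The partners of C1q were abundant: C1s1, the protease that cuts C4 and C2, averaged 65.0 ± 5.36 FPKM with ND and 72.1 ± 11.0 FPKM with HCD, and C1ra, which activates it, 22.6 ± 5.83 and 27.4 ± 5.36 FPKM (SD, n = 3). C1qbp, a mitochondrial protein named for C1q binding, averaged 41.1 ± 2.67 and 46.9 ± 3.24 FPKM (SD, n = 3). Its log2 difference of 0.19 had a limma adjusted p of 0.794. Cfp, encoding properdin, the stabiliser of the alternative pathway, differed by 0.54 (limma adjusted p = 0.794), by 0.35 without ND 1 and by 0.28 without HCD 2. Cfd, the protease that cuts factor B and a product of fat cells, was at 8.34 FPKM in ND 2, 9.10 FPKM in HCD 1 and 11.1 FPKM in HCD 2 and at 0.735 to 1.52 FPKM in the other 3, and it was chosen after its values were seen. Adipoq, which encodes the fat cell hormone adiponectin, was at 0.882, 0.952 and 0.826 FPKM in those 3 libraries and at most 0.120 FPKM in the others. It lay below the level for testing and was chosen after its values were seen. Of the 2 tested adipocyte genes, Car3 was also highest in those 3 libraries (12.4, 47.6 and 7.81 FPKM, against at most 1.22 FPKM). Fabp4 was not: ND 2 had 5.31 FPKM, below 7.18 FPKM in ND 1 and 7.32 FPKM in ND 3. HCD 1 too lay below ND 1 and ND 3 in Fabp4. The muscle gene sum was highest in ND 2, HCD 1 and HCD 2 (730.1, 852 and 80.9 FPKM). The part of fat or muscle RNA in the Cfd values was not tested.

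Among inhibitors and receptors, most differences were also inside the spread. Clu, encoding clusterin, an inhibitor of the membrane attack complex, averaged 82.9 ± 9.22 FPKM with ND and 68.5 ± 8.10 FPKM with HCD (SD, n = 3). Its log2 difference was -0.27 (limma adjusted p = 0.794). Serping1, the C1 inhibitor, was at 40.5 ± 11.4 and 44.2 ± 21.3 FPKM, and Cpn1, a carboxypeptidase that inactivates anaphylatoxins, at 25.3 ± 2.41 and 26.9 ± 6.62 FPKM (SD, n = 3). Itgb2 and Itgax, the chains of complement receptor 4, differed by 0.62 and 0.58 (limma adjusted p = 0.794 each), with ND 1 lowest and HCD 2 highest in both, as for C1q. Without ND 1 the differences were 0.26 for each, without HCD 2 they were 0.31 and 0.36, and without ND 2 0.93 for Itgb2.

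The receptors of C5a had lower values in every HCD library than in any ND library, although neither was called. Groups that did not overlap were found for 12.1% of all tested genes, and in the list of further complement genes for 2 of 27 tested ones, C5ar1 and Cr1l, a membrane regulator of C3 cleavage (6.38 to 6.67 FPKM in ND, 5.90 to 6.33 FPKM in HCD). C5ar1, the main C5a receptor of myeloid cells, gave 1.90, 2.27 and 1.77 FPKM in ND libraries 1, 2 and 3, and 0.705, 1.57 and 0.971 FPKM in the HCD libraries. The groups did not overlap, and the log2 difference was -0.53 (95% interval -0.94 to -0.13, unadjusted p = 0.0170, limma adjusted p = 0.794). C5ar2, the second C5a receptor, sits beside it on chromosome 7 (16234585 to 16244154, minus strand) and was chosen after its values were seen. In the same order it gave 0.504, 0.439 and 0.586 FPKM, then 0.0552, 0.0412 and 0.0134 FPKM. Every ND library lay far above every HCD library. In reads these are 41, 41 and 43 against 4, 3 and 1. Pooled per fragment, C5ar2 reads were 13.8-fold lower in HCD, with an exact binomial 95% interval of 6.80 to 32.7 that covers counting error only. C5ar2 lay below the level for testing, with a mean of 0.273 FPKM. In a limma fit of 24803 genes without that filter, its log2 difference was -0.54 (unadjusted p = 3.18e-05, adjusted p = 0.240), and 2 genes had a lower p. With 1 library left out the adjusted p ranged from 0.154 to 0.700, so the difference did not pass the threshold in those fits. C3ar1, the receptor of C3a, overlapped between the groups, with 3.15, 7.46 and 5.06 FPKM on ND, then 4.14, 9.06 and 4.30 FPKM on HCD, and it too was chosen after its values were seen. Neutrophil genes, which share C5ar1 with macrophages, summed to 97.9, 41.5 and 104.5 FPKM in ND libraries 1, 2 and 3, against 39.8 to 42.2 FPKM for HCD. S100a8 and S100a9 made up most of these sums. Of the 7 tested neutrophil genes 6 had a lower mean in HCD, as did 5942 of all 13417 tested genes, and 0 were called. Csf3r, the receptor of the neutrophil growth factor G-CSF, had 8.16 to 10.8 FPKM in ND libraries and 5.41 to 8.04 FPKM in HCD libraries. Cxcr2, a chemokine receptor of neutrophils, had 1.38 to 3.19 FPKM and 1.17 to 1.36 FPKM. Neither overlapped between the groups, as C5ar1 did not (limma adjusted p = 0.794 for Csf3r and for Cxcr2), and both were chosen after their values were seen. The part of neutrophil RNA in the C5a receptor values was not tested.

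**Figure D4:**
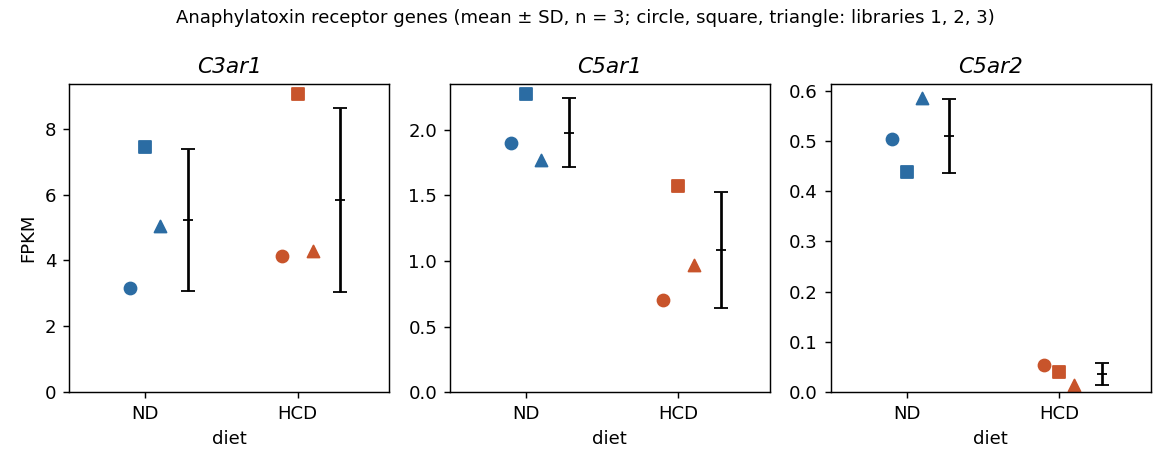
FPKM of C3ar1, C5ar1 and C5ar2 in each tumour (linear axes from 0), with circles, squares and triangles for libraries 1, 2 and 3 of ND (blue) and HCD (orange) and group mean ± SD (n = 3) beside them. C5ar2 is at 0.439 to 0.586 FPKM in ND but 0.0134 to 0.0552 FPKM in HCD, while the C3ar1 groups overlap.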

How the data were processed

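RNA-seq of 6 tumour libraries was used, 3 ND and 3 HCD. The authors deposited FPKM values, per the file headers, with 1 column per sample, and 0 value columns lacked a labelled sample. The build mm10 and the tools HTSeq, edgeR, TopHat2 2.0.9 and CASAVA 1.8 appear, without roles, in the submitters' processing notes; strand use, counting mode and annotation release are not given in the sources used here. The complement genes, the marker lists and the list of further complement genes were chosen with earlier results of these data known. Named from the further list were the 8 highest by mean and, in each direction, the 2 lowest by p.

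Genes averaging 0.5 FPKM or more were fitted on log2(FPKM + 1) with limma 3.58.1 (R 4.3.3), diet as the only term, a variance trend, two-sided tests and Benjamini-Hochberg adjustment over 13417 genes. Differences are HCD minus ND and understate changes of low genes. Correlations over 6 libraries used exact permutation of all pairings, as 1 family of 45 gene and list pairs and 1 of 36 gene pairs. Where a list symbol had 2 rows (Itgam), the row with the higher mean was taken.

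Reads were read back from the FPKM steps. Gene lengths up to 90% shorter or longer than that of GENCODE M21 were searched, nearest first. The length taken made all 6 values whole within 0.02 of a read, with a small allowance at high counts. For Cfb it was 4798 bases and for C2 5642, against 2825 and 3872 exon bases in GENCODE M21. The search succeeded for 90.2% of tested genes. These reads served for depth and for limma-voom. The fit was tested on simulated data before use.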

Additional observations from a re-analysis of the deposited data

How the results depend on the processing

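No complement gene was called under any of the settings run, namely a pseudocount of 0.1, no filter, a filter of 1 FPKM in 3 libraries, median-ratio scaling, the replicate block, no variance trend, omission of single libraries or of pairs, and limma-voom on recovered reads. Of 132 alternative values of the 9 differences, 14 turned and 117 were labelled the same, with their direction kept. The remaining 1, Cfb with a pseudocount of 0.1 (-0.35), also kept its direction but moved beyond the spread. The filters, the replicate block and the variance setting cannot change a difference, so the values under them could not turn. The spread for Cfb was that of log2(FPKM + 1), another scale than that of its moved value. Leaving out 1 library gave log2 differences of 0.22 to 0.80 for C1qa, 0.24 to 0.85 for C1qb, 0.23 to 0.84 for C1qc, -0.010 to 0.14 for C2, -0.11 to 0.023 for C3, -0.22 to 0.47 for C4b, -1.18 to -0.31 for Cfi and -0.11 to 0.093 for Hc, and 0 to 1 genes called lower over all genes (1 without ND 2). Likewise it gave -0.29 to 0.44 for Serping1, -0.19 to 0.37 for C3ar1 and -0.11 to 0.22 for Cpn1. Chosen after seeing the data were limma-voom and the omission of library pairs. Without ND 1 and HCD 2 the differences were -0.051 (C1qa), -0.090 (C1qb), -0.088 (C1qc), -0.049 (C2), -0.64 (C4b), 0.048 (Hc), -0.091 (C1ra), -0.047 (C1s1), -0.54 (Serping1), -0.46 (C3ar1) and -0.047 (Itgb2), with 1 of 8 tested complement genes higher. Without ND 2 and HCD 1, the libraries with most muscle RNA, Cpn1 turned to -0.11 while the C1q chains stood at 0.85 to 0.95. By limma-voom, which tested 12095 genes, called 0 and had 624 at an unadjusted p under 0.05, Hc was at 0.013. Why these values turned was not tested.

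Whether the replicate numbers pair the samples is not stated in the labels. Deviations from the group mean correlated at -0.190, 0.142 and 0.059 between same-numbered libraries. Between differently numbered ones the correlations ran from -0.517 to 0.532. With 3 libraries a group these values cannot decide whether samples were paired. With equal groups the replicate block cannot change a difference, so Cfi stayed at -0.78 and C1qa at 0.58 (limma adjusted p = 0.794 each). Standard errors did change, from 0.429 to 0.248 for Cfi and from 0.0896 to 0.104 for C3. With the block 0 genes were called in either direction. Median-ratio scaling shifted the median gene by -0.006 and left 0 of 45 gene and list pairs under an adjusted p of 0.05. Depth limits the sparse genes: Cfb rests on 14 to 32 reads a library and C5ar2 on 1 to 43.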
